A study of Mus musculus with 9 samples.

Results

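The T cell receptor of mouse regulatory T cells was described through its variable (V), diversity (D) and joining (J) gene segments. Members were the rows of the count table named as alpha V or J segments (TRAV, TRAJ) or beta V, D or J segments (TRBV, TRBD, TRBJ) that held at least 100 raw counts summed over the 9 libraries. Of 239 such rows among 49510 genes, 155 were members: 106 of 128 TRAV, 14 of 60 TRAJ, 24 of 35 TRBV, 1 of 2 TRBD and 10 of 14 TRBJ segments. Members were thus chosen by their summed count, which does not use the organ, and the size of that sum is given only as a description. Spleen and MLN libraries held more segment counts than heart libraries, so they weighed more in that sum. Just inside the limit were Trav6d-5 with 120 counts and Traj24 with 122 counts, and just outside were Trbj2-4 with 95 counts and Trav4d-2 with 90 counts. In the table, 34 of the 239 segments held 0 counts, and 7 of the 155 members are annotated as pseudogenes.

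The alpha and beta chains of the receptor are assembled while a T cell matures in the thymus. The enzymes Rag1 and Rag2 cut the chromosome beside 1 V and 1 J segment, with a D segment between them in the beta chain, and join the pieces, so that each cell and its descendants carry one rearranged beta chain and in most cases one productive alpha chain. The joined V segment, with the joint itself, forms the part of the receptor that touches peptide and MHC, and the constant segments Trac, Trbc1 and Trbc2 are spliced on behind it. In bulk RNA the number of V segments in use and the evenness of their use depend on the clones that the sorted cells hold, without naming them.

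The cells came from 8-week-old mice of the Foxp3-GFP strain, in which green fluorescent protein reports Foxp3, the lineage factor of regulatory T cells (Tregs). All animals had an ischemia/reperfusion (I/R) injury of the heart 3 days earlier, so the series holds no uninjured control. The 3 groups, each of 3 libraries, were Tregs of the spleen, of the heart-draining MLN (mediastinal lymph node) and of the injured heart, purified on magnetic beads and again by flow cytometry. RNA was amplified with a SMARTer Ultra Low Input kit, and no label ties a library to an animal of its own. All p-values below therefore speak only of the spread among these libraries, which may be technical.

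Library totals ran from 156194012 to 267520538 counts, and levels are given as CPM (counts per 1000000 library counts), with library totals scaled by the trimmed mean of M-values (TMM). The 5 Treg genes Foxp3, Il2ra, Ctla4, Ikzf2 and Tnfrsf18 had counts in all 9 libraries and summed to 2643 to 2977 CPM in spleen, 2292 to 3828 CPM in MLN and 967.4 to 1157 CPM in heart. Foxp3 alone was at 8.77, 38.0 and 0.24 CPM in heart 1, 2 and 3. Spleen 3, MLN 3 and heart 2 had the highest TMM factor of their organ, 1.24, 1.17 and 1.11. Markers of other cells were present: B cell genes (4 genes) summed to 852.4 to 1125 CPM in spleen, 307.4 to 1781 CPM in MLN and 0.38 to 15.2 CPM in heart, and macrophage genes (4 genes) to 685.9 to 1805 CPM, 208.6 to 668.5 CPM and 3705 to 7877 CPM. Fibroblast genes (3 genes) summed to 1.04 to 6.44 CPM in the lymphoid organs and to 2323 to 17159 CPM in heart. Mast cell genes (3 genes) reached 6545 and 3918 CPM in heart 1 and heart 2 and 4.17 CPM in heart 3, where Cpa3 and Mcpt4 were at 0. Cardiomyocyte genes (3 genes) were at 0 in all 6 lymphoid libraries and summed to 77.1 to 348.7 CPM in heart.

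J segments are short enough to print, and those with the highest mean level are shown because Traj8 and Trbj2-6, among the most counted, lack the coding motif. Traj33 is added as the J segment of an invariant chain. Sequences are the annotated transcripts of GENCODE release vM21 on GRCm38, the assembly that mm10 names, on the plus strand. Capitals mark the motif TTTGG or TTCGG, any 4 bases, then GG, which encodes the phenylalanine, glycine, any residue and glycine at which a J segment closes the antigen-binding loop. The search also covered the reverse strand, where 0 segments matched.
Traj27: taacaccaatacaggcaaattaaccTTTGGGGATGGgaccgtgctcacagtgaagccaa
Traj23: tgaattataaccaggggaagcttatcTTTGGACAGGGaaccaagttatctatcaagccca
Traj12: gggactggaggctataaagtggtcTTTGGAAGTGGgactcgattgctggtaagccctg
Traj18: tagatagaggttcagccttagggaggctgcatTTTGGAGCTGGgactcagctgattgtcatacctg
Traj33: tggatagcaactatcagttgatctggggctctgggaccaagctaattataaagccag
Traj8: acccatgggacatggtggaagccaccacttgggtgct
Trbj2-7: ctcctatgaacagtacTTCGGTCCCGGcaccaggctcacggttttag
Trbj2-1: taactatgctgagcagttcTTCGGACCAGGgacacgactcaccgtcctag
Trbj2-6: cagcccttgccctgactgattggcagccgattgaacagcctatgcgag
These lie at chr14:54192303-54192361, chr14:54196081-54196140, chr14:54206553-54206610, chr14:54200777-54200842, chr14:54185358-54185414 and chr14:54209918-54209954 for the alpha segments, and at chr6:41543810-41543856, chr6:41542754-41542803 and chr6:41543598-41543645 for the beta segments, in the printed order. The motif was in 43 of 60 TRAJ segments (71.7%) and in 10 of the 14 TRAJ members. It was in 11 of 14 TRBJ segments (78.6%) and in 7 of the 10 TRBJ members. Traj8 and Trbj2-6, which are annotated as pseudogenes, and Traj33, which is annotated as a functional gene, do not hold these letters.

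Segment reads took a smaller share of the heart libraries than of any spleen or MLN library. The 155 members held 0.0390%, 0.0407% and 0.0271% of all counts in spleen 1, 2 and 3, 0.0492%, 0.0425% and 0.0335% in MLN and 0.0155%, 0.0138% and 0.00994% in heart. Each of these has a 95% Wilson interval of at most 0.00031 percentage points to either side. The interval covers counting error only, and whether PCR copies were removed is not given in the sources used here. The heart values lay below all 6 lymphoid values, at 0.0131% ± 0.00287 (SD, n = 3) against 0.0387% ± 0.00761 (SD, n = 6). The difference of -0.0255 points had a two-sided exact permutation p of 0.0119, the smallest that the 84 arrangements of 3 against 6 libraries allow. After Benjamini-Hochberg adjustment over the 5 values tested in this way the p was 0.0595, so it did not pass 0.05. Fewer T cells and less receptor RNA per cell cannot be told apart in these bulk samples, and the part of the macrophage, fibroblast and mast cell reads given above was not tested.

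The constant segments, which every rearranged chain carries, give a scale within the receptor itself. Trac, Trbc1 and Trbc2 summed to 2402, 2627 and 1399 CPM in spleen, 3349, 2907 and 2153 CPM in MLN and 1477, 1021 and 973.1 CPM in heart. The heart sums overlapped those of the spleen and lay below those of the MLN. Segment counts amounted to 16.3%, 15.3% and 15.6% of the constant counts in spleen, 15.1%, 14.5% and 13.3% in MLN and 14.0%, 12.2% and 12.4% in heart. On this scale heart and lymphoid libraries differed by -2.15 percentage points (exact permutation p = 0.0357, adjusted p = 0.0595), and heart 1 lay above MLN 3. Thus the ratio of heart to lymphoid libraries was closer to 1 than for the share of all counts, and neither difference passed after adjustment.

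**Figure D1:**
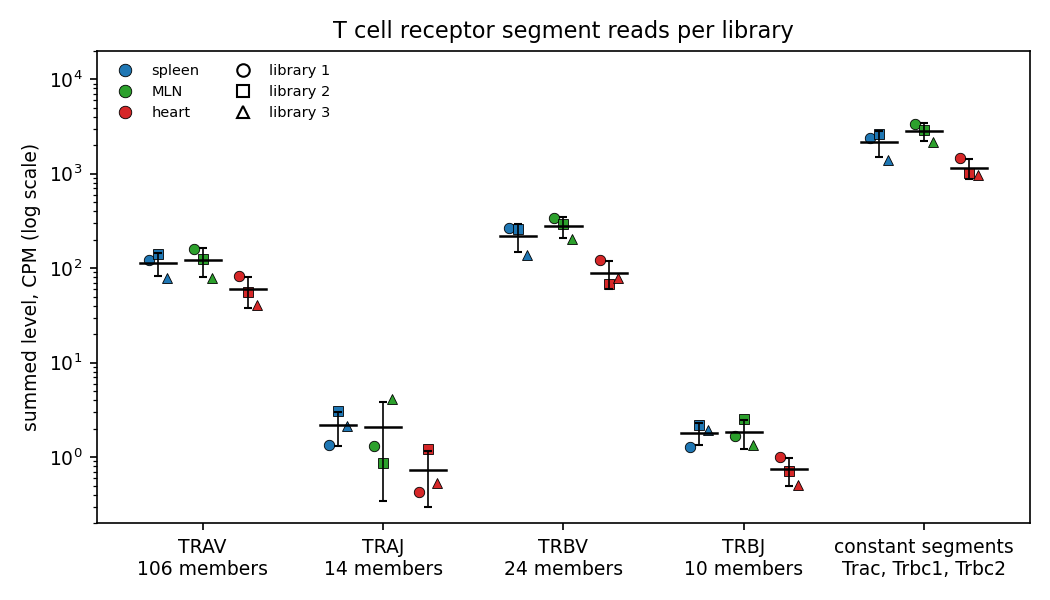
Summed level in CPM on a log axis of the members of each segment class, and of the 3 constant segments, in each library. Colours are organs, symbols are library numbers, long bars are means and error bars SD (n = 3), and the summed TRBV level is 67.4 to 123 CPM in heart against 136 to 342 CPM in the lymphoid organs.

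V segments supplied nearly all segment reads. TRBV members summed to 220 ± 72.7 CPM in spleen, 280 ± 70.5 CPM in MLN and 89.8 ± 29.6 CPM in heart (SD, n = 3 each). TRAV members summed to 113 ± 31.6 CPM in spleen, 121 ± 40.7 CPM in MLN and 59.6 ± 21.2 CPM in heart (SD, n = 3 each), and the heart 1 sum of 82.5 CPM lay above those of spleen 3 and MLN 3. J segments were far lower: TRAJ members summed to 0.43 to 4.08 CPM and TRBJ members to 0.51 to 2.54 CPM across the 9 libraries. Per kilobase of annotated exon the classes were closer, since TRAJ members have a median exon length of 61 bases and TRBJ members of 49 bases against 359 for TRAV and 366 for TRBV. On that length-scaled level TRAJ members stood at 0.51 to 4.91 CPM per kilobase, TRAV members at 0.99 to 3.88 CPM per kilobase and TRBV members at 7.28 to 36.9 CPM per kilobase.

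Evenness was measured as the effective number of segments, the exponential of the Shannon entropy of the counts within a segment class, which equals the number of members when all are used alike. For TRBV it was 17.2, 16.2 and 16.6 in spleen, 17.4, 17.8 and 17.0 in MLN and 17.5, 13.4 and 13.7 in heart, of 24 members. Heart 2 and heart 3 lay below all lymphoid libraries, while heart 1 was within their range. The difference of heart from lymphoid libraries was -2.19 segments (14.8 ± 2.27, n = 3, against 17.0 ± 0.57, n = 6, exact permutation p = 0.0714, adjusted p = 0.0893).

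For TRAV the effective number was 41.2, 47.9 and 54.7 in spleen, 59.3, 67.7 and 46.9 in MLN and 53.8, 32.0 and 36.8 in heart, of 106 members. The ranges of all 3 organs overlapped. The difference of heart from lymphoid libraries was -12.1 segments (40.9 ± 11.5, n = 3, against 52.9 ± 9.59, n = 6, exact permutation p = 0.131, adjusted p = 0.131). When TRAV members were summed into 19 subgroups, merging duplicated copies, the effective number was 10.9, 11.5 and 10.9 in spleen, 10.6, 12.4 and 11.5 in MLN and 10.4, 8.37 and 9.44 in heart. At that resolution the 3 heart libraries lay below the 6 lymphoid ones, with a difference of -1.89 subgroups (exact permutation p = 0.0119, adjusted p = 0.0298). This setting was 1 of several alternatives, and the other values entered the adjustment with their main p. Other filters, the inverse Simpson index and thinning of counts gave adjusted exact permutation p of 0.131 to 0.179 for TRAV.

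For TRAJ the effective number was 11.5, 11.3 and 12.4 in spleen, 9.23, 11.7 and 11.6 in MLN and 7.29, 9.95 and 6.24 in heart, of 14 members. Heart 2 overlapped MLN 1, and the other heart libraries lay below all lymphoid ones. The difference was -3.46 segments (7.83 ± 1.91, n = 3, against 11.3 ± 1.07, n = 6, exact permutation p = 0.0238, adjusted p = 0.0595). TRAJ members held only 76, 303 and 118 counts in heart against 192 to 1055 in the lymphoid libraries. With every library thinned to 76 TRAJ counts the difference was -3.16 segments (exact permutation p = 0.0238, adjusted p = 0.0595). Counts per gene do not tell reads of joined J segments from other reads on these rows, and the pseudogene Traj8 was among the most counted. Whether this evenness is that of the J segments in rearranged chains was not tested. For TRBJ, which was not tested, the effective number of the 10 members was 8.60 ± 0.0647 in spleen, 7.69 ± 1.02 in MLN and 8.02 ± 0.96 in heart (SD, n = 3 each).

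Fewer members were detected in 2 of the 3 heart libraries. More than 3 counts were found for 121, 130 and 129 of the 155 members in spleen, 137, 141 and 118 in MLN and 127, 99 and 85 in heart. Heart 1 lay within the lymphoid range. The difference of -25.7 members (exact permutation p = 0.0357) had an adjusted p of 0.0595. Spleen and MLN weighed more in the sum that chose the members. Of the 151 members tested by edgeR, 9 had 0 counts in all heart libraries and were chosen through spleen and MLN alone. The choice of members thus favours fewer in heart, and the p-value does not allow for it. Heart libraries held 26602 to 36984 segment counts in all against 60931 to 105108 in the lymphoid libraries, and the part of that depth in the count of detected members was not tested. The 4 thymocyte genes Rag1, Rag2, Dntt and Ptcra, which act in receptor assembly, summed to 50.7, 26.0 and 338.7 CPM in MLN 1, 2 and 3, to at most 0.82 CPM in spleen and to at most 0.12 CPM in heart. Their part in the MLN values was not tested.

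**Figure D2:**
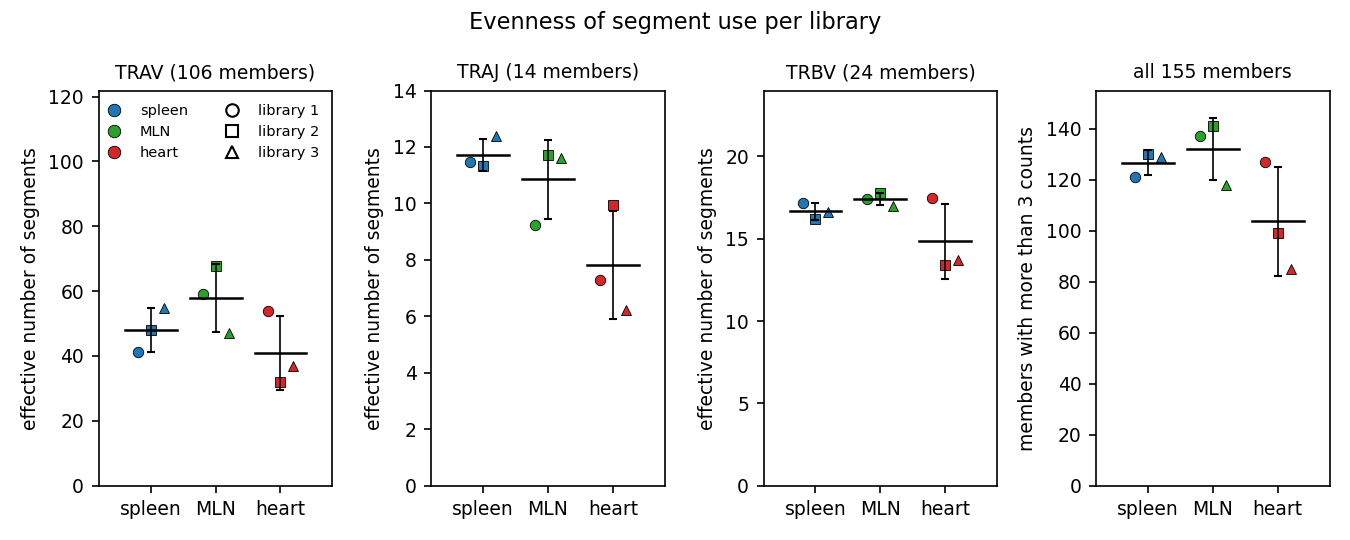
Effective number of segments per library for TRAV, TRAJ and TRBV, and members with more than 3 counts, on linear axes from 0. Symbols are library numbers, bars are means and error bars SD (n = 3), and heart 2 and heart 3 lie below every lymphoid library for TRBV at 13.4 and 13.7, while heart 1 is at 17.5.

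Trbv3 (chr6:41048290-41048828) led the beta V segments, with 43986 counts in all and 50.4 CPM per kilobase on average. It took 17.0%, 18.7% and 16.4% of TRBV counts in spleen, 8.25%, 7.80% and 6.87% in MLN and 4.004%, 11.8% and 16.2% in heart, where 95% Wilson intervals of TRBV shares reach at most 0.55 points to either side. Spleen and MLN shares did not overlap, and the heart libraries spanned both ranges. Its level was 45.3, 48.1 and 22.4 CPM in spleen, 28.2, 22.9 and 14.0 CPM in MLN and 4.94, 7.97 and 12.8 CPM in heart. Heart levels lay below those of both other organs. The log2 difference from spleen was -2.17 (SE 0.59, edgeR adjusted p = 0.122) and from MLN -1.34 (SE 0.57, edgeR adjusted p = 0.306), so neither passed.

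Trbv16 (chr6:41151740-41152230) was the most counted TRBV segment of MLN 2 and MLN 3. Its level was 9.85, 6.35 and 6.37 CPM in spleen, 17.3, 27.8 and 22.3 CPM in MLN and 6.20, 2.14 and 3.82 CPM in heart. The 3 organs did not overlap, with MLN highest and heart lowest. The log2 difference of heart from MLN was -2.47 (SE 0.67, edgeR adjusted p = 0.108), of heart from spleen -0.89 (SE 0.64, edgeR adjusted p = 0.699) and of MLN from spleen 1.58 (SE 0.65, edgeR adjusted p = 0.839).

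Trbv19 (chr6:41178375-41179048) stood at 11.8, 6.70 and 7.74 CPM in spleen, 26.8, 18.0 and 17.3 CPM in MLN and 10.4, 4.78 and 6.30 CPM in heart. MLN levels lay above both other organs, which overlapped. The log2 difference of heart from MLN was -1.53 (SE 0.61, edgeR adjusted p = 0.275) and of MLN from spleen 1.24 (SE 0.60, edgeR adjusted p = 0.839). As a share of TRBV counts it was 4.42%, 2.60% and 5.68% in spleen, 7.84%, 6.12% and 8.50% in MLN and 8.45%, 7.08% and 8.00% in heart, so on that scale heart and MLN overlapped and spleen was lowest.

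The levels of the other leading TRBV segments overlapped between heart and spleen. Trbv1 (chr6:40891229-40891885), the most counted TRBV segment of MLN 1 and heart 2, stood at 6.77, 15.8 and 5.44 CPM in spleen, 36.3, 24.1 and 6.55 CPM in MLN and 8.95, 9.48 and 9.86 CPM in heart. Its heart level did not stand apart from spleen, and its share of TRBV counts was 7.25%, 14.1% and 12.5% in heart against 2.54% to 10.6% elsewhere. Trbv13-2 (chr6:41121396-41121832) led heart 1 at 11.7% of TRBV counts and stood at 17.3 ± 9.52 CPM in spleen, 23.4 ± 7.26 CPM in MLN and 7.85 ± 5.73 CPM in heart (SD, n = 3 each). Trbv15 (chr6:41141188-41141658) stood at 12.4 ± 4.88, 15.2 ± 8.06 and 7.12 ± 4.40 CPM in the same order (SD, n = 3 each). Trbv30, chosen after its values were seen, held 2064 counts in spleen 3 and 1106 in heart 1, 109 and 87 in MLN 1 and MLN 2, and 0 in the other 5 libraries.

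**Figure D3:**
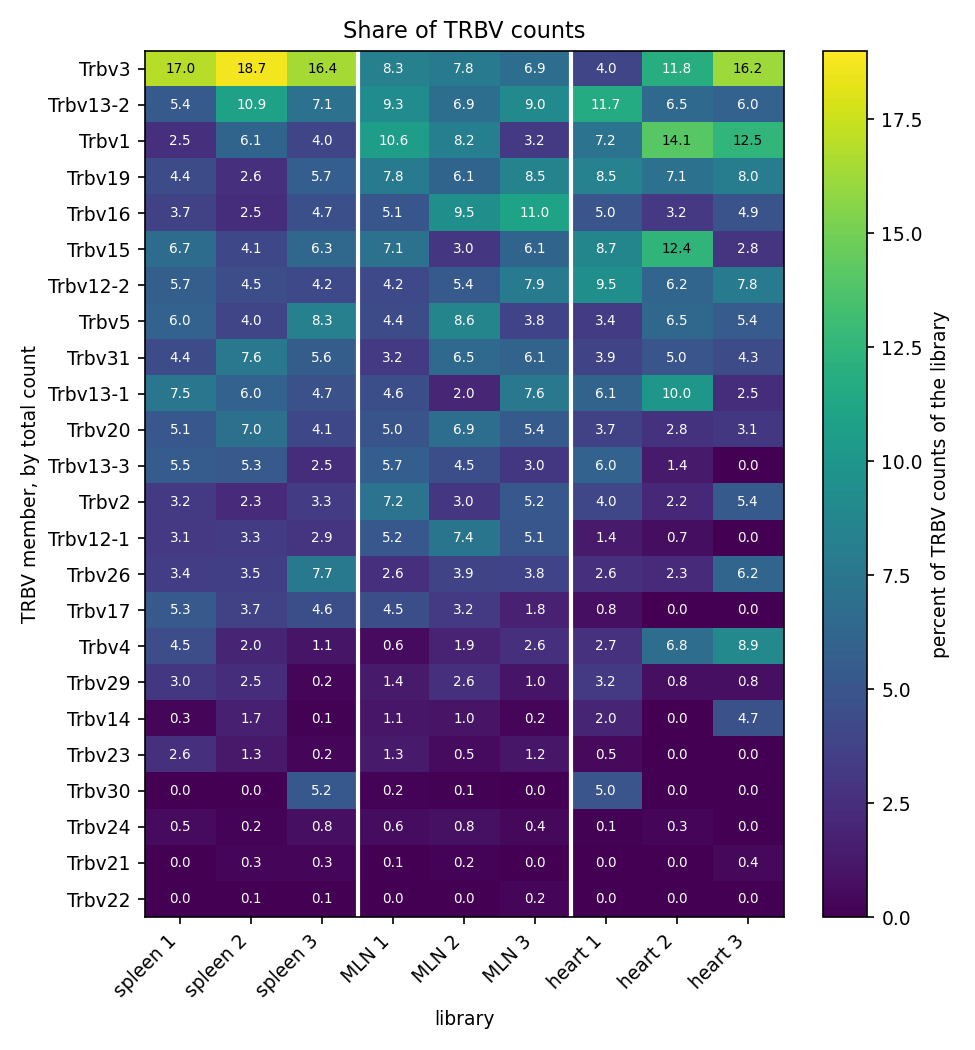
Share of TRBV counts in percent for the 24 TRBV members (rows, ordered by total count) in the 9 libraries (columns, organs separated by white lines). Trbv3 is at 16.4% to 18.7% in the spleen libraries and 6.87% to 8.25% in the MLN libraries, while heart spans 4.004% to 16.2%.

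Spleen and MLN libraries had more of their TRBV use in common with others of their organ than with those of the other organs. Among heart libraries this held only for heart 2 and heart 3 with each other. The share of TRBV use that 2 libraries did not have in common was 17.9% to 23.7% within spleen, 20.02% to 21.3% within MLN and 23.4% to 34.4% within heart. The medians within spleen, MLN and heart were 19.1%, 21.1% and 30.7%, against 25.5% between MLN and spleen, 31.1% between heart and spleen and 31.3% between MLN and heart. Heart 1 differed less from MLN 1 (22.2%) and MLN 3 (22.9%) than from heart 2 (30.7%) or heart 3 (34.4%). Heart 2 and heart 3 differed by 23.4%. Their values against the lymphoid libraries were higher, at 27.5% to 34.6% for heart 2 and 29.9% to 34.9% for heart 3. For TRAV the medians were 51.8% over 27 pairs of different organs and 50.8% over 9 pairs of the same organ. These pairs share libraries and carry no test.

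Single TRAV segments came and went between libraries of 1 organ. Of 106 TRAV members, 41 in spleen, 32 in MLN and 35 in heart were at 0 in 1 library and at 100 counts or more in another of the same organ, against 2, 3 and 6 of 24 TRBV members. The median coefficient of variation of CPM was 95.7%, 88.6% and 119% for TRAV and 48.2%, 49.5% and 55.8% for TRBV in spleen, MLN and heart. TRAV members also held fewer counts, with a median total of 1172 against 16095 for TRBV. The part of this in the spread was not tested. More than 3 counts in all 9 libraries were found for 17 of 106 TRAV and 15 of 24 TRBV members. The most counted TRAV segment changed with the library: Trav7-4 in spleen 1 and heart 1, Trav16n in spleen 2, Trav12-3 in spleen 3 and MLN 1, Trav7d-2 in MLN 2, Trav1 in MLN 3, Trav14n-3 in heart 2 and Trav8n-2 in heart 3.

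The leading TRAV segment took 4.93% to 9.45% of TRAV counts in 8 of the libraries. In heart 2 Trav14n-3 (chr14:53370077-53370575) took 19.0%, where 95% Wilson intervals of TRAV shares reach at most 0.65 points to either side. Its level was 1.12, 9.40 and 1.56 CPM in spleen, 2.01, 0.58 and 2.98 CPM in MLN and 3.05, 10.5 and 2.25 CPM in heart, so 1 library of spleen and 1 of heart were high. Trav7-4 (chr14:53461099-53461738), the TRAV member with the highest mean level, stood at 11.4, 7.73 and 2.76 CPM in spleen, 4.81, 4.93 and 2.54 CPM in MLN and 7.57, 0 and 1.25 CPM in heart. It was therefore absent from the counts of heart 2 and abundant in heart 1. Trav12-3 (chr14:53621657-53622245) stood at 1.95, 2.10 and 7.14 CPM in spleen, 10.6, 2.66 and 1.49 CPM in MLN and 0.44, 0 and 0.36 CPM in heart, with heart below both other organs. Trav14n-1 (chr14:53166626-53167178) varied least of the leading 5, at 3.26 ± 1.21 CPM in spleen, 3.30 ± 0.65 CPM in MLN and 1.41 ± 0.62 CPM in heart (SD, n = 3 each). Trav21-dv12, which also serves the delta chain, was at 508 counts in heart 1 and at 0 in heart 2 and heart 3.

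Many TRAV segments exist as near-identical copies in the duplicated part of the locus, marked d and n, and counts of single copies are uncertain because the handling of reads that fit several places is not given in the sources used here. Of 85 pairs of members that are copies of each other by name, 12 had identical annotated transcripts and 18 were at least 99% identical. Of those 18 pairs, 9 had, in at least 3 libraries, 100 or more counts of both copies within 10% of each other. In 8 of the 18, at least 1 library had 1 copy at or below 3 counts and the other at 100 or more. The identical pair Trav6-6 and Trav6d-6 held 188 and 180 counts in spleen 1 and 947 and 925 in MLN 1 but 148 and 0 in heart 2. The identical pair Trav12d-2 and Trav12n-2 held 516 and 519 counts in spleen 3 and 106 and 0 in spleen 2. A count of 0 for a member with a near-identical copy is therefore not by itself the absence of its sequence.

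**Figure D4:**
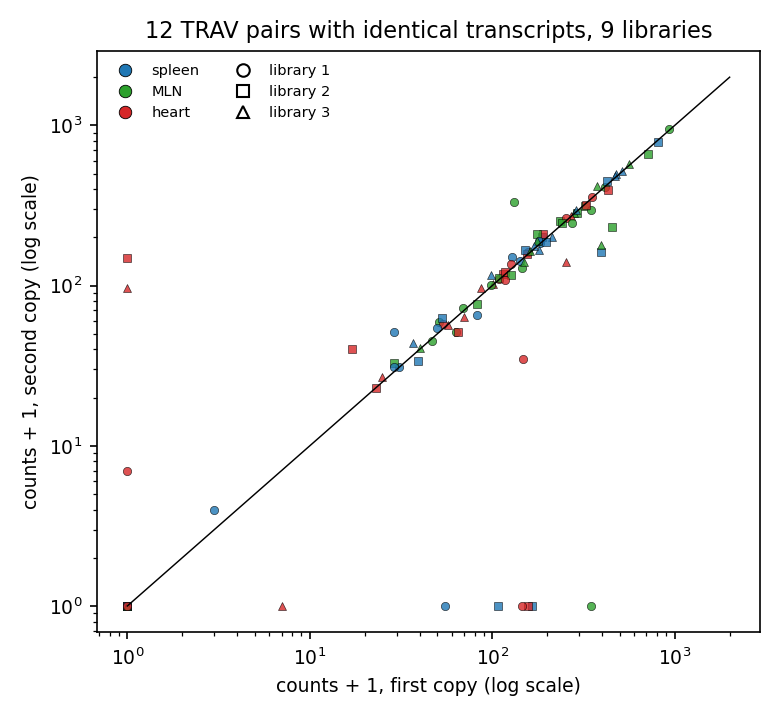
Counts plus 1 of the 2 copies, on log axes, for the 12 TRAV pairs with identical annotated transcripts in each of the 9 libraries (colours are organs, symbols library numbers, the line marks equal counts). Of the 54 of 108 points with 100 or more counts of both copies, 42 lie within 10% of equal counts, and 10 points have exactly 1 copy at 0, such as heart 2 for Trav6-6 and Trav6d-6 with 148 and 0 counts.

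In the alpha J locus all members lay in the part nearer to Trac. None of the 28 TRAJ segments upstream of Traj33 was a member, with 531 counts in all, a median of 18 and a highest sum of 72. From Traj33 on, 14 of 32 were members, with 4065 counts in all and a median of 74.5. Since membership is set by the count, this is a description of where the counts lie. The upstream part held 28.9%, 11.6% and 12.1% of TRAJ counts in spleen, 9.90%, 13.6% and 2.49% in MLN and 24.3%, 13.2% and 21.4% in heart. MLN 3, which had the highest sum of thymocyte genes, had the lowest of these shares, and whether these go together was not tested.

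**Figure D5:**
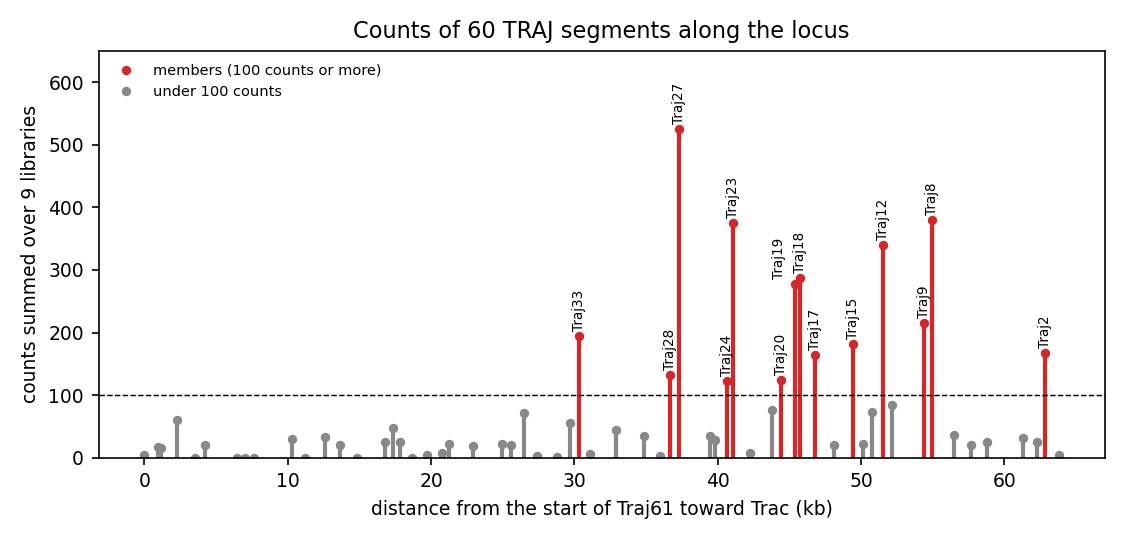
Counts summed over the 9 libraries for the 60 TRAJ segments against distance in kilobases from the start of Traj61 toward Trac, members in red and the dashed line at 100 counts. All 14 members lie from Traj33 on, with Traj27 highest at 525 counts.

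Traj27 was the most counted alpha J segment in 5 libraries, with 18, 93 and 81 counts in spleen, 22, 33 and 183 in MLN and 22, 66 and 7 in heart. Traj23 led spleen 1 and spleen 2, with 39, 115 and 46 counts in spleen, 18, 16 and 121 in MLN and 5, 7 and 8 in heart. At 0.0280, 0.0279 and 0.0362 CPM in heart 1, 2 and 3 Traj23 lay below all lymphoid libraries, which held 0.07 to 0.54 CPM. Traj12 held 35, 14 and 73 counts in spleen, 20, 33 and 123 in MLN and 4, 38 and 0 in heart. With at most 1055 TRAJ counts in a library, 95% Wilson intervals of TRAJ shares reach 2.28 to 9.999 points to either side at their widest in each library.

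The pseudogene Traj8, whose annotated transcript is 37 bases long, was second among alpha J segments by count, with 12, 74 and 45 counts in spleen, 29, 14 and 141 in MLN and 4, 36 and 24 in heart. Per kilobase it was above Traj27, at 4.82 against 4.17 CPM. The pseudogene Trbj2-6 led the beta J segments, with 29, 84 and 137 counts in spleen, 80, 144 and 101 in MLN and 26, 6 and 31 in heart. It ends 165 bases before the start of the functional segment Trbj2-7, which held 18, 68 and 90 counts in spleen, 55, 77 and 81 in MLN and 17, 31 and 10 in heart. Trbj2-1 held 40, 46 and 40 counts in spleen, 75, 48 and 48 in MLN and 18, 6 and 20 in heart. In CPM, the heart libraries lay below every lymphoid library for Trbj2-6 and Trbj2-1, and for Trbj2-7 below every MLN library while overlapping spleen. Trbd2, the sole D segment among the members, is 14 bases long and held 147 counts in all.

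The tests between organs were made gene by gene over the whole table, with edgeR's quasi-likelihood test on the counts and Benjamini-Hochberg adjustment over 16609 genes that passed its filter on low counts, among them 151 of the 155 members. Heart against MLN gave 1 member past an adjusted p of 0.05, which was Trav12-1, beside 1.38% of all genes tested. Heart against spleen gave 0 members, beside 0.789% of all genes, and MLN against spleen 0 members, beside 0% of all genes. In simulated data where every gene had the common dispersion of these libraries, edgeR recovered 0% of 8-fold and of 64-fold changes. In the data the spread differs between genes and some genes were called, so the simulation does not measure recovery for single members. With 3 libraries per organ, a member that was not called may still differ between organs. At an unadjusted p under 0.05 there were 14, 13 and 2 members, against 15.5%, 13.6% and 5.75% of all genes. DESeq2's Wald test called 15, 13 and 1 members in the same order, of which 15, 12 and 0 were lower in the organ named first. That is 10.2%, 8.84% and 0.68% of the 147 members with an adjusted p there, beside 14%, 11.9% and 4.61% of all 15767 such genes. The shares of members past these thresholds are thus at or below those of all genes with both tools, and both heart comparisons use the same heart libraries.

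Trav12-1 (ENSMUSG00000096825, chr14:53538191-53538738) fell in heart against MLN. It held 162, 410 and 403 counts in spleen, 318, 365 and 398 in MLN and 0, 0 and 0 in heart. At 1.57 ± 0.06 CPM in MLN and 1.46 ± 0.45 CPM in spleen (SD, n = 3 each), it was at least 111-fold lower in heart than in MLN and at least 103-fold lower than in spleen, computed against 3 counts per heart library. The edgeR adjusted p was 0.0429 against MLN and 0.0537 against spleen, so the second comparison did not pass. The call against MLN was lost without any 1 of the 9 libraries, where the adjusted p ran from 0.0713 to 0.141. The call held with DESeq2 size factors in the edgeR fit (0.0440) and with DESeq2's Wald test (adjusted p = 2.03e-14), which also called Trav12-1 against spleen (adjusted p = 3.31e-14). It was lost without the filter on low counts (0.0984), in a fit of those 2 organs alone (0.0511) and with the replicate number as a block (0.244). In all, 9 of the 151 members tested (5.96%, beside 2.91% of all genes tested) were at 0 counts in all 3 heart libraries: 6 TRAV, 2 TRAJ and 1 TRBV segments. Chosen after their values were seen, those other than Trav12-1 were Trav6n-5, Trav8d-2, Trav15-2-dv6-2, Trav9d-3, Trav13d-4, Traj2, Traj28 and Trbv22, with 133 to 742 counts each in the lymphoid libraries together. All 9 reached the minimum of 100 counts through spleen and MLN alone. No such minimum was set for all genes, so these percentages rest on unlike selection. Trav9d-3 has an identical copy, Trav9n-3, so its 0 is not by itself the absence of its sequence.

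Levels of most members were lower in heart without passing the test singly. Of 151 members tested, 121 had a negative log2 difference of heart from spleen with a median of -1.14, beside 0.02 over all genes, and 132 had one of heart from MLN with a median of -1.33, beside 0.12. By class the medians against spleen were -1.03 for TRAV, -1.53 for TRAJ, -1.54 for TRBV and -1.40 for TRBJ. Against MLN they were -1.23, -1.38, -1.57 and -1.34 in the same order. In MLN against spleen the median was 0.36, beside 0 over all genes, with 93 members higher and 58 lower. The minimum count of members, to which spleen and MLN gave more than heart, was not set for all genes. The medians of members and of all genes therefore rest on unlike selection.

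Members whose libraries did not overlap between organs lay on 1 side in both heart comparisons. In heart against spleen 29 members were lower with no overlap (19.2% of those tested, beside 6.9% of all genes) and 0 were higher (beside 12.4% of all genes). In heart against MLN 41 were lower (27.2%, beside 11.2%) and 0 higher (beside 14.9%). They include Trbv3, Trbv16, Trav12-1, Trav12-3, Traj23, Trbj2-6 and Trbj2-1 in both comparisons. In MLN against spleen 3 members were lower (beside 4.56%), namely Trbj2-3, Trav6n-6 and Traj20, and 6 were higher (beside 4.52%), among them Trbv16 and Trbv19.

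The other genes of the receptor complex had lower mean levels in heart. Of the 7 genes Trac, Trbc1, Trbc2, Cd3d, Cd3e, Cd3g and Cd247, the constant segments and the signalling chains that accompany them, 0 were called in any of the 3 comparisons. All 7 had negative log2 differences of heart from spleen and from MLN, with medians of -0.75 and -0.89, beside 0.02 and 0.12 over all genes. Trac stood at 774.0 ± 184.7 CPM in spleen, 867.0 ± 261.4 CPM in MLN and 466.4 ± 163.0 CPM in heart (SD, n = 3 each). Of the recombination genes Rag1, Rag2, Dntt and Ptcra, 3 of 4 were tested and 0 called. At an unadjusted p under 0.05 were 3 in MLN against spleen, 3 in heart against MLN and 1 in heart against spleen, beside 5.75%, 15.5% and 13.6% of all genes. Dntt, which adds bases at the joints, stood at 28.5, 19.1 and 293.2 CPM in MLN 1, 2 and 3. Of the gamma-delta chain genes 5 were tested and 0 called. Tcrg-C1 was at 11.3, 16.6 and 1.38 CPM in spleen, 56.9, 56.7 and 0.77 CPM in MLN and 9.92, 15.5 and 1.74 CPM in heart. For this gene the third library of each organ was lowest. Tcrg-C4 was at 5.98, 37.7 and 7.81 CPM in spleen, 35.8, 35.5 and 8.74 CPM in MLN and 44.8, 0 and 1.69 CPM in heart. There the third library was lowest in MLN alone. Tcrg-C2 was at 0, 17.6 and 1.46 CPM in spleen and at 0 in all heart libraries. Cd8b1, a co-receptor chain of CD8 T cells and thymocytes, stood at 196.1, 107.6 and 528.9 CPM in MLN, 35.2, 163.7 and 41.2 CPM in spleen and 6.99, 20.9 and 32.3 CPM in heart. Cd8a, the other chain, stood at 17.8, 4.89 and 34.1 CPM in MLN, 0.03, 22.0 and 8.10 CPM in spleen and 0, 0.08 and 0 CPM in heart. In heart 1, heart 3 and spleen 1 Cd8b1 was thus counted with little or no Cd8a.

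Invariant alpha chains mark innate-like T cells, Trav11 with Traj18 in iNKT cells and Trav1 with Traj33 in MAIT cells. Trav11 stood at 0, 0.64 and 0.41 CPM in spleen, 1.58, 0.43 and 0.19 CPM in MLN and 0.35, 0.01 and 0 CPM in heart, with heart 2 at 2 counts. Its near-identical copy Trav11d held 71, 150 and 120 counts in spleen, 334, 114 and 48 in MLN and 66, 2 and 0 in heart, so both copies were at 0 in heart 3 alone. Traj18 held 13, 30 and 53 counts in spleen, 50, 14 and 67 in MLN and 5, 20 and 35 in heart, and it was the most counted alpha J segment of MLN 1 and heart 3, at 18.3% and 29.7% of TRAJ counts. Heart 3, where Traj18 took that share, had 0 counts of Trav11 and of Trav11d. Trav1 held 0, 341 and 106 counts in spleen, 38, 196 and 1917 in MLN and 161, 866 and 38 in heart, so that MLN 3 and heart 2 were high. Traj33 held 6, 48 and 49 counts in spleen, 28, 12 and 28 in MLN and 16, 6 and 1 in heart. In MLN 3 and heart 2 Traj33 thus took 2.65% and 1.98% of TRAJ counts, while Trav1 took 9.45% and 6.22% of TRAV counts. Zbtb16, a transcription factor of innate-like T cells that other cells also express, was at 0, 0 and 13.0 CPM in spleen, at 0 CPM in all MLN libraries and at 29.3, 184.8 and 77.7 CPM in heart. Which V segment was joined to which J segment is not recorded in counts per gene.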

How the data were processed

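RNA of sorted Tregs was sequenced in 9 libraries, 3 per organ. The authors deposited raw read counts per gene, not normalized and not pooled. The submitters' processing notes list mm10 as genome build and, as tools, HTSeq 0.6.0, HISAT2 and CASAVA 1.8.2. Not given in the sources used here are the HISAT2 version, strand setting, annotation release and treatment of reads with several matches, so counts of near-identical copies and of members that overlap other genes (Trav13n-3, Trbv4 and Trbv5) are uncertain. Each of the 9 count columns entered the fit, and 0 columns were left out.

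Counts were analysed with edgeR 4.0.16 in R 4.3.3: TMM scaling, filterByExpr with its defaults, and 1 quasi-likelihood model over 9 libraries with organ as its term (6 residual degrees of freedom). P-values were adjusted by Benjamini-Hochberg over 16609 genes, and DESeq2 1.42.0 was an alternative. Each SE of an edgeR log2 difference was derived as its absolute value divided by the square root of the F statistic of the test. The edgeR step was tested on simulated data with 200 genes changed 8-fold or 64-fold in heart against spleen. At a dispersion of 0.05 it recovered 100% for both folds, among 16513 and 16481 genes. At the common dispersion of these libraries, 1.76, set alike for every gene, it recovered 0% for both folds, among 16404 and 16329 genes. Effective numbers, shares and detected members were compared, 3 heart against 6 spleen and MLN libraries, by two-sided exact permutation over 84 arrangements, adjusted over 5 values. Where an alternative applied to only a few of these values, the main p of the others entered the adjustment. The exact test of 3 against 3 libraries cannot go below p = 0.1.

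All 239 segment names were found in GENCODE vM21 (GRCm38), which gave lengths, coordinates, transcript sequences and pseudogene labels. The members and lists were chosen with earlier results of these data known. Named members were the 5 with the highest mean CPM in each of TRAV, TRAJ and TRBV and 3 among beta D and J segments, the most counted of TRAV, TRAJ and TRBV in each library, members called by edgeR, those next to the count limit, and the invariant chains. Alternatives tried were other scaling, filters, tests, limits, evenness indices, thinning, merging of copies, a replicate block and leaving out libraries.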

Additional observations from a re-analysis of the deposited data

How the results depend on the processing

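Depth limits the J segments most: 0 counts allow a share of up to 3.95% of TRAJ counts in heart 1, against 0.0334% of TRAV counts in the heart library with fewest.

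No value changed direction under any alternative. DESeq2 called 13, 15 and 1 members in heart against spleen, heart against MLN and MLN against spleen, where edgeR called 0, 1 and 0. These are 8.84%, 10.2% and 0.68% of members, below the 11.9%, 14% and 4.61% of all genes that DESeq2 called. Heart against MLN gave 0 members with no filter on low counts, in a fit of 2 organs alone, with the replicate block and without any 1 library (0 to 0), and the other comparisons stayed at 0 without any 1 library (0 to 0).

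The share of counts passed at a minimum sum of 1000 counts per member (-0.0241 points, adjusted exact p = 0.0476), detected members passed at 100 counts or more (-24.8, adjusted exact p = 0.0397) and TRAV evenness passed when summed by subgroup (-1.89, adjusted exact p = 0.0298). The first setting left no TRAJ member and gave -9 for detected members (adjusted exact p = 0.111) and -6.75 for TRAV (0.167). Summing by subgroup gave -0.85 for TRBV (0.190), a minimum sum of 1 count gave -6.03 for TRAJ (0.0794), and Pielou evenness gave -0.0428 for TRAJ (0.155), so none of these passed. Detected members keep the limit that spleen and MLN weighed more in the choice of members.

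Leaving out 1 library gave -0.0279 to -0.0234 points for the share, -18.6 to -7.65 for TRAV, -4.52 to -2.67 for TRAJ, -3.50 to -1.47 for TRBV and -37.3 to -16.3 for detected members. Of these, the share (-0.0234) and TRAJ (-3.87) passed without MLN 1, each with an adjusted exact permutation p of 0.0446.

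Same-numbered libraries of different organs deviated from their organ means with correlations from -0.208 to 0.221, and not every library correlated best with its own number. Such correlations cannot tell whether same-numbered libraries came from the same animals, and no label says so. With labels exchanged only within a replicate number (replicate block), the unadjusted exact p was 0.037 for the share and TRAJ, 0.222 for TRAV, 0.111 for TRBV and 0.0741 for detected members. After adjustment the exact p was 0.0926 for the share and TRAJ, 0.222 for TRAV, 0.139 for TRBV and 0.123 for detected members, so none passed. The block called 0 genes in each comparison and changed no other call.

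Chosen after seeing the data, the values without the MLN libraries were -0.0225 points for the share, -7.07 for TRAV, -3.90 for TRAJ, -1.83 for TRBV and -23.0 for detected members. Without heart 2, MLN 3 and spleen 3 they were -0.0301, -8.72, -4.17, -1.57 and -26.3. None passed, and the smallest exact p these 2 designs allow are 0.1 and 0.0667.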

Other observations

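Among the 19 TRAV subgroups, Trav14 held the most counts, 35678 over its 9 members. It took 18.0%, 18.0% and 17.4% of TRAV counts in spleen, 15.4%, 14.8% and 19.1% in MLN and 18.4%, 33.7% and 28.0% in heart. Heart 2 and heart 3 lay above the other 7 libraries, and heart 1 lay within them. The Trav7 subgroup with 13 members took 20.6%, 17.7% and 9.10% in spleen, 15.8%, 18.1% and 11.8% in MLN and 19.0%, 8.96% and 7.65% in heart. The Trav6 subgroup with 14 members took 8.47%, 11.6% and 14.8% in spleen, 18.7%, 12.4% and 9.04% in MLN and 22.9%, 13.9% and 10.02% in heart. These subgroups were singled out by their total count, and no difference between organs in a single subgroup was tested. Summed by subgroup, more than 3 counts were found for 16, 18 and 19 of 19 subgroups in spleen, 19, 19 and 17 in MLN and 19, 15 and 13 in heart.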
